A study of Mus musculus with 24 samples.

Results

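The genes described here are 10 genes of de novo lipogenesis, out of 54532 genes counted in each of 24 libraries of mouse calf muscle. They are Fasn, Acly, Acaca, Scd1, Elovl6, Me1, Thrsp, Srebf1, Mlxipl and Slc25a1, and all 10 had enough counts to be tested. They were chosen by name around Fasn, which was picked from the large fall seen earlier in sedentary pain females against their controls, and by the spread among saline controls. The values of that comparison are therefore a description: no p-value is given for them, and their counts past the threshold set for all genes support nothing.

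Left gastrocnemius muscle, a large muscle of the calf, came from wild-type C57/BL6 mice in 6 groups of 4, the sexes separately. Saline controls were sedentary and had 2 injections of 20 µl of saline at pH 7.2 ± 0.1 into that muscle, 5 days apart. Sedentary pain mice had the same injections at pH 5.0 ± 0.1, with 6 min of electrically driven contraction right before the second. Active pain mice had running wheels for 8 weeks and then the same pain procedure. The labels give 24 h as the time for every sample and no age. Controls had neither acid nor contraction, so acid and contraction cannot be told apart. No group ran without pain, so running can be compared only between active and sedentary pain mice. Active pain mice differed from controls in acid, contraction and running together. The labels do not say whether samples of a group came from separate animals, and p-values measure the spread between these samples.

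Fatty acids are made in the cytosol from citrate that the mitochondrion exports. Citrate is cut to acetyl-CoA, acetyl-CoA is carboxylated to malonyl-CoA, and fatty acid synthase joins these units to palmitate at the cost of NADPH, after which elongases and desaturases change chain length and saturation. In mice the pathway is most active in liver, fat and lactating mammary gland. Skeletal muscle expresses most of its enzymes weakly, and fat cells lie between and around the fibres of a dissected muscle. In bulk tissue a change in the number of cells of a type and a change in RNA per cell cannot be told apart.

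Library totals were 17612139 to 34039699 counts. The 11 muscle fibre markers summed to 112948 to 248718 CPM (read counts scaled to a common effective library size) in every library, as the tissue label says. Files carry a number in their names, which is 20 or lower for replicates 1 and 2 of each group and 25 or higher for replicates 3 and 4. What this number stands for is not given in the sources used here, and the counts of genes past the threshold, the medians and the values of Fasn are also given within each set for the female comparisons.

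Female saline controls 3 and 4 stood apart from the other 22 libraries for these genes. Their numbers are 32 and 40, and both lay above all the others for 8 of the 10 genes. Srebf1 and Mlxipl were the exceptions. Of the 15103 genes tested in all samples, 525 (3.48%) had both libraries above the other 22. Comparisons with these controls are also given without them.

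The starts of 3 of the genes show which sequences known from lipogenic promoters the upstream DNA holds. The 250 bases before the RefSeq start were read from build GRCm38.p6, with 13 promoters for 9 of the 10 genes, and Scd1 was not matched. Both strands were searched for CACGTG (an E-box, the core bound by ChREBP and USF proteins), TCACNNCAC (a sterol regulatory element core), CCAAT and GGGCGG, motifs that do not contain each other. Capitals mark CACGTG and CCAAT on either strand, the latter reading ATTGG on the other strand. The Fasn window is shown as that of the gene the set is built around, and the windows of Slc25a1 and of 1 Mlxipl start as those holding CACGTG. They lie at chr11:120824548-120824797 (minus strand), chr16:17928220-17928469 (minus strand) and chr5:135089640-135089889 (plus strand).
Fasn: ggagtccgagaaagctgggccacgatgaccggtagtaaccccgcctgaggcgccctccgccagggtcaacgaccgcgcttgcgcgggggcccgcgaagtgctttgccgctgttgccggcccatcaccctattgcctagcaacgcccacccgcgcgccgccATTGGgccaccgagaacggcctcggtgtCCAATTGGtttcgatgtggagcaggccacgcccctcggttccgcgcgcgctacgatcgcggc
Slc25a1: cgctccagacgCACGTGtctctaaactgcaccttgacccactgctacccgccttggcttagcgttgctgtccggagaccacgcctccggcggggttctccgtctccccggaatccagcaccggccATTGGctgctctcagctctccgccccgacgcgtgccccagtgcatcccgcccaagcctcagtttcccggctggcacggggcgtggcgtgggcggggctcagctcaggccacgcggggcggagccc
Mlxipl: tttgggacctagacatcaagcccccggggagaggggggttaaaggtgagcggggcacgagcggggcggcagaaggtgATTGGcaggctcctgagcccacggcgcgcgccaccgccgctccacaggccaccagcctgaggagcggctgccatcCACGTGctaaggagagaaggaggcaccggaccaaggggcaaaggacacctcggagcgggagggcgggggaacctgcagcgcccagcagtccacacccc
Fasn held 3 CCAAT boxes, whose first bases lie 90, 62 and 59 bases before the start, and neither CACGTG nor TCACNNCAC in this window. CACGTG was in 2 of the 13 promoters, 239 bases before the Slc25a1 start and 98 bases before this Mlxipl start, against 6.02% of 32851 mouse promoters. TCACNNCAC was in 1 of 13, at the other Mlxipl start (3.11% of all). CCAAT was in 7 of 13 and GGGCGG in 6 of 13, against 33.9% and 32.7% of all promoters. A match is a description of the letters, not a bound site.

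Fasn (ENSMUSG00000025153, chromosome 11, 120805846 to 120824547, minus strand in GENCODE M21 on GRCm38) encodes fatty acid synthase, which makes palmitate. In female saline controls 1 to 4 it was at 96.7, 119, 2128 and 1994 CPM. The female sedentary pain libraries held 16.5, 33.6, 57.4 and 14.5 CPM, and the active pain libraries 118, 58.1, 78.6 and 36.0 CPM. In males the controls held 29.3, 81.9, 35.2 and 16.9 CPM, the sedentary pain libraries 20.3, 16.0, 20.0 and 22.9 CPM, and the active pain libraries 15.9, 18.6, 108 and 21.2 CPM. The lower of the 2 high controls was 16.7-fold above the highest of all other libraries, which was control 2 of the same group. Controls 1 and 2 in turn lay above every female sedentary pain library, and the highest active pain library lay between them.

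**Figure D1:**
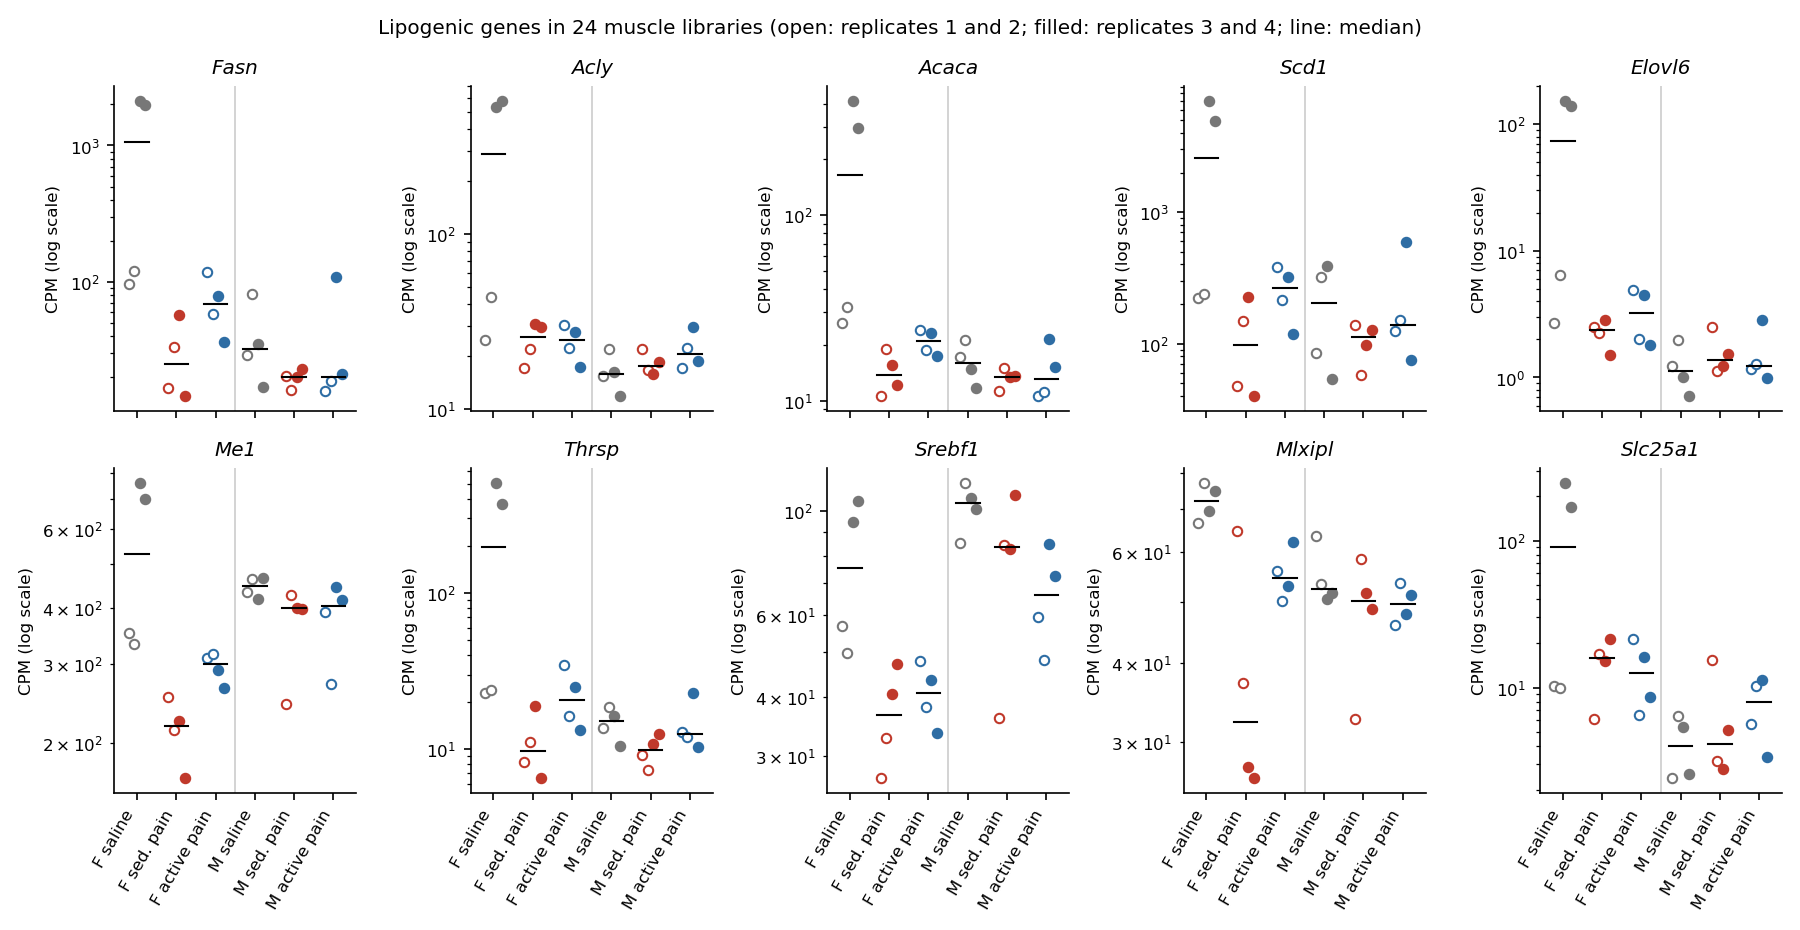
CPM (log scale) of the 10 genes in each of 24 libraries, by sex (F, M) and group; open points are replicates 1 and 2, filled points replicates 3 and 4, and lines are group medians. For Fasn the filled female saline points are at 1994 and 2128 CPM and every other point is at 119 CPM or lower, while Srebf1 and Mlxipl show no such gap.

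The genes that feed carbon into the pathway followed the same 2 libraries. Acly (ATP citrate lyase, which cuts citrate to acetyl-CoA) was at 24.7, 43.5, 533 and 577 CPM in the female controls and at 11.8 to 30.5 CPM in all 20 libraries of the other 5 groups. Slc25a1, the mitochondrial citrate carrier, was at 10.2, 9.97, 248 and 171 CPM in those controls. It differed from Fasn in the low controls: female sedentary pain libraries held 6.14, 16.9, 15.1 and 21.4 CPM, and 3 of these 4 lay above controls 1 and 2. Acaca (acetyl-CoA carboxylase, which makes malonyl-CoA) was at 26.2, 31.8, 414 and 297 CPM in the controls, and its highest value in the other groups was 23.9 CPM.

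Me1, cytosolic malic enzyme and a source of NADPH, was abundant everywhere. Female controls held 352, 333, 759 and 700.0 CPM, female sedentary pain libraries 254, 213, 224 and 167 CPM, and female active pain libraries 309, 316, 290.4 and 265 CPM. These 3 groups did not overlap. Male libraries held 244 to 466 CPM, and 10 of these 12 libraries lay above female controls 1 and 2.

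Elongation and desaturation follow the synthase. Scd1 (stearoyl-CoA desaturase) was at 222, 239, 7024 and 4933 CPM in female controls, 47.5, 149, 227 and 39.7 CPM with sedentary pain and 380.3, 213, 319.6 and 119 CPM with active pain. Elovl6, the elongase of palmitate, was at 2.71, 6.48, 153 and 139.8 CPM in the controls and at 0.71 to 4.94 CPM in the 20 libraries of the other groups. Thrsp (Spot 14, a nuclear and cytosolic protein of lipogenic tissues) was at 22.8, 23.9, 507 and 372 CPM in the controls, 8.28, 11.1, 18.9 and 6.5 CPM with sedentary pain and 34.5, 16.2, 25.1 and 13.3 CPM with active pain.

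The transcription factors behaved otherwise. Srebf1, which encodes SREBP-1, was at 56.8, 49.8, 94.6 and 105 CPM in female controls but at 85.6, 115, 107 and 101 CPM in male controls, so the 2 high female libraries lay within the male range. Srebf1 overlaps Rai1 on the opposite strand (median 17.7 CPM), and whether counting used strand is not given in the sources used here. Mlxipl, which encodes ChREBP, the carbohydrate-responsive factor, was at 66.5, 77.1, 69.6 and 75.0 CPM in female controls, a range of 1.16-fold. The mean of controls 3 and 4 (numbers of 25 or higher) over that of controls 1 and 2 (20 or lower) was 1.01 for Mlxipl and 1.87 for Srebf1. It was 2.13 for Me1 and 12.3 to 31.9 for the other 7 genes, with Elovl6 at 31.9, Scd1 at 25.9, Slc25a1 at 20.7, Fasn at 19.1, Thrsp at 18.8, Acly at 16.3 and Acaca at 12.3.

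Levels between genes were compared per kilobase of exon. Over the 22 other libraries the median was 89.0 CPM per kilobase for Me1 and 29.3 for Scd1, the highest of the 10 genes, and 9.46 for Srebf1 and 9.32 for Mlxipl. The others had medians of 5.98 for Thrsp, 4.17 for Acly, 3.50 for Slc25a1, 2.87 for Fasn, 0.895 for Acaca and 0.294 for Elovl6. In controls 3 and 4 the order changed. Scd1 was at a mean of 1222 CPM per kilobase, Thrsp at 201, Me1 at 190 and Fasn at 188, and Srebf1 and Mlxipl were the lowest at 17.7 and 13.1.

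For most of the genes the wide spread among saline controls was in females. In female controls the SD of log2 CPM was 2.09 to 2.99 for the 7 genes with large ratios, while the median over 15103 genes was 0.24. Elovl6 had the 9th and Fasn the 32nd widest spread of all genes there, and Mlxipl (0.10) was narrower than the median gene. Male controls had an SD of 0.94 for Fasn and 1.40 for Scd1, against a median of 0.16 over all genes. For the remaining 8 genes the male SD was 0.07 (Me1) to 0.71 (Slc25a1).

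Markers of other cells moved with the 2 high libraries. The 13 adipocyte markers summed to 679, 525, 6370 and 3301 CPM in female controls 1 to 4, and to 283 to 962 CPM in the 20 libraries of the other groups. All 13 were higher in both libraries than in the other 22, with a median ratio of controls 3 and 4 to controls 1 and 2 of 12.1. Adipoq, the adipocyte hormone adiponectin, was at 368 and 176 CPM against a median of 19.0 CPM in the other 22 libraries, and Lep (leptin) at 44.7 and 31.5 CPM against 2.69 CPM. Several of these markers, such as Fabp4 and Lipe, are also expressed by endothelial or muscle cells.

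Epithelial genes were present as well. Krt5 and Krt14, basal keratins fixed as skin markers, were at 2.85 and 2.15 CPM in control 3 and at 1.39 and 1.60 CPM in control 4, with 0 in controls 1 and 2, while Krt1 was at 0 in both. Of the 5 skin markers 2 had both libraries above the other 22. The 5 summed to 2.19, 1.58, 6.73 and 4.48 CPM in female controls 1 to 4. Where controls 1 and 2 held counts, the median ratio of controls 3 and 4 to them was 0.85. A list of 18 glandular epithelium markers, written after those values were seen, had 13 genes with both libraries above the other 22. Their sum was 10.5, 9.97, 114 and 110.5 CPM in female controls 1 to 4 and 10.3 to 16.9 CPM in the other 20 libraries. Krt19 was at 30.1 and 26.9 CPM, Krt8 at 17.4 and 21.1 CPM and Epcam at 8.35 and 8.38 CPM. Of milk protein genes, Csn2, Csn1s1 and Wap were at 0 in both libraries and Csn3 was at 1.5 and 1.60 CPM. None of the muscle fibre (11), leukocyte (10), endothelial (5), fibroblast (5) or Schwann cell (5) markers had both libraries above the other 22. The part of the fat and epithelial cells in the levels of the 10 genes was not tested.

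**Figure D2:**
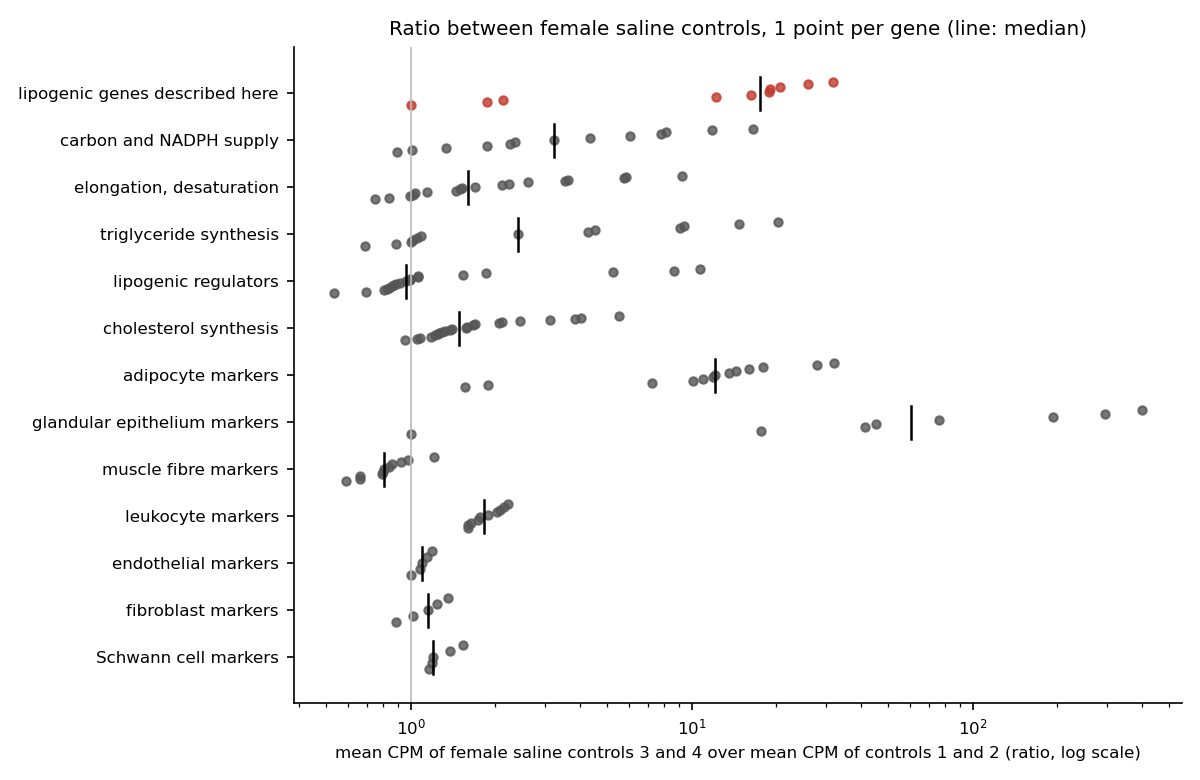
Mean CPM of female saline controls 3 and 4 over that of controls 1 and 2 (ratio, log scale), with 1 point per gene in the lipogenic genes, 5 pathway lists and 7 marker lists; lines are the medians of the points drawn, and genes at 0 in controls 1 and 2, or below 0.5 CPM throughout, are not drawn. The points of 7 lipogenic genes lie between 12.3 and 31.9, among the adipocyte markers, and the muscle fibre markers lie near 1.

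The remaining genes of the pathway shared this only in part. Both libraries were above the other 22 for 8 of 13 genes of carbon and NADPH supply, 9 of 22 of elongation, desaturation and other fatty acid synthesis, 6 of 14 of triglyceride synthesis and 8 of 23 of cholesterol synthesis and uptake. For regulators of lipogenic transcription it was 3 of 19. Agpat2 (an acyltransferase of triglyceride synthesis) was at 187 and 124 CPM against 7.44 and 7.92 CPM in controls 1 and 2. Pparg, the adipocyte master factor, was at 31.7 and 19.6 CPM against 3.41 and 2.51 CPM.

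Fasn was then set against the adipocyte markers of its own library. Per 100 counts of the 13 markers, Fasn had 14.2, 22.7, 33.4 and 60.4 counts in female saline controls 1 to 4. The female sedentary pain libraries had 4.2, 5.51, 7.0 and 5.11, and the active pain libraries 12.9, 10.6, 10.95 and 5.07. Every female control was above every female pain library on this scale, controls 1 and 2 included, with the lowest control at 14.2 and the highest pain library at 12.9. Fasn was picked from its fall in sedentary pain females against these controls, so this is a description. Male medians were 5.73 for saline (3.66 to 13.3), 3.80 for sedentary pain (3.06 to 4.10) and 3.98 for active pain (2.51 to 13.4). The ratio of medians, female saline to female sedentary pain, was 5.29, and 3.48 with controls 1 and 2 alone. With Adipoq alone as the denominator it was 3.17, and 2.60 with controls 1 and 2, where control 1 (341 per 100) lay below 2 active pain libraries, the higher at 398.

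**Figure D3:**
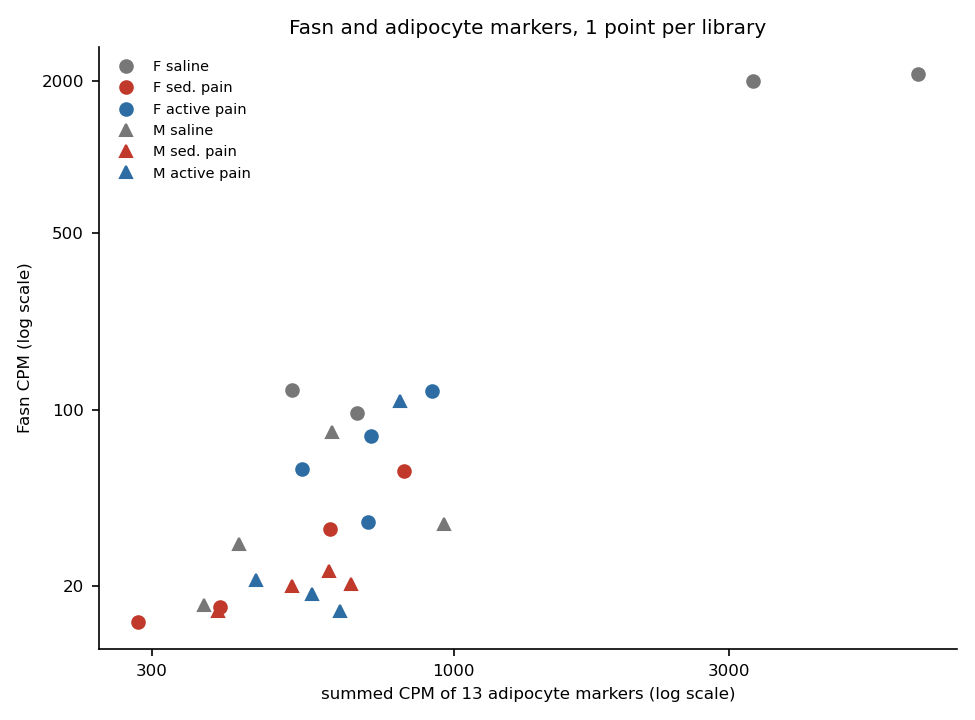
Fasn CPM against the summed CPM of 13 adipocyte markers (both log scale), 1 point per library, circles for females and triangles for males. Female saline controls 3 and 4 lie apart at the upper right (1994 and 2128 CPM of Fasn), and controls 1 and 2 (96.7 and 119 CPM) lie above other libraries of like marker sum.

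The genes whose log2 CPM followed Fasn most closely over the 24 libraries were Thrsp (Pearson's r = 0.97), Pnpla3 (0.97), Acaca (0.96), Aldh1a7 (0.95), Scd1 (0.95), Nat8l (0.94), Elovl6 (0.94), Cdo1 (0.94), Slc36a2 (0.93) and A530016L24Rik (0.92). Of these 10, 4 were lipogenic genes of the set. The 2 high controls weigh heavily in these values, so they were computed again over the other 22 libraries. Thrsp (0.92) and Acaca (0.91) then ranked first and second, followed by Pnpla3 (0.88), while Acly fell to 0.68, Slc25a1 to 0.44 and Me1 to 0.10. Srebf1 was at 0.27 over 24 libraries and -0.04 over 22, and Mlxipl at 0.45 and 0.27. Adipoq was at 0.84 and 0.61. Over residuals from the 6 group means the 10 closest genes were Scd1, Thrsp, Dgat2, Nat8l, Aldh1a7, Elovl6, Pnpla3, Acaca, Mmd and A530016L24Rik. These correlations describe libraries that share groups and tissue composition.

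The first comparison asks what sedentary pain changes in females, and it is the one Fasn was picked from. All 10 genes were lower and past the threshold of edgeR's quasi-likelihood test, as were 13.9% of 14511 genes in this direction. Since the genes were picked from these values, nothing is read from that count. For 6 of them the groups did not overlap (Fasn, Acaca, Me1, Thrsp, Srebf1 and Mlxipl), as for 11.8% of genes in this direction. The log2 changes were -5.13 ± 1.05 (SE) for Fasn, -5.04 ± 1.12 for Elovl6, -4.73 ± 1.14 for Scd1, -4.35 ± 0.97 for Thrsp, -3.73 ± 0.79 for Acaca and -3.55 ± 0.86 for Acly. They were -2.86 ± 0.95 for Slc25a1, -1.30 ± 0.27 for Me1, -1.02 ± 0.27 for Srebf1 and -0.87 ± 0.23 for Mlxipl. The median was -3.64, and -0.02 over all genes tested.

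The size of these changes rested largely on controls 3 and 4. Without them the median was -0.90, and 2 of the 10 genes, Acaca at -0.98 ± 0.25 and Me1 at -0.64 ± 0.18, were past the threshold and lower, with 5.13% of all genes lower and 11.4% higher in that fit. Fasn was at -1.78 ± 0.56, the largest of the 10, Thrsp at -1.02 ± 0.45, Elovl6 at -0.98 ± 0.49, Scd1 at -0.95 ± 0.66, Srebf1 at -0.50 ± 0.24 and Acly at -0.42 ± 0.32. Slc25a1 turned to 0.60 ± 0.55. Within library numbers of 20 or lower the median was -0.86, Fasn was at -2.07 ± 0.47, Slc25a1 at 0.23 ± 0.67 and 0 of the 10 were past the threshold (0.112% of all genes lower). Within numbers of 25 or higher the median was -4.40, Fasn was at -5.80 ± 0.77 and all 10 were past it (6.28% of all genes lower). Mlxipl was at -0.86 ± 0.31 without the 2 controls, no longer past the threshold, at -0.46 ± 0.28 within the low numbers and at -1.38 ± 0.18 within the high ones. In the female sedentary pain libraries the 13 adipocyte markers summed to 283 to 820.3 CPM, against 525 to 6370 CPM in controls, and 11 of the 13 were called lower, with a median of -2.99. The muscle fibre markers summed to 112948 to 215398 CPM, against 163341 to 248718 CPM in controls, 10 leukocyte markers to 383 to 4401 CPM, against 77.3 to 173 CPM, and 5 endothelial markers to 121 to 149 CPM, against 164 to 183 CPM. All 10 leukocyte markers were called higher and 2 of the 5 endothelial markers lower. Their part in these changes was not tested.

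**Figure D4:**
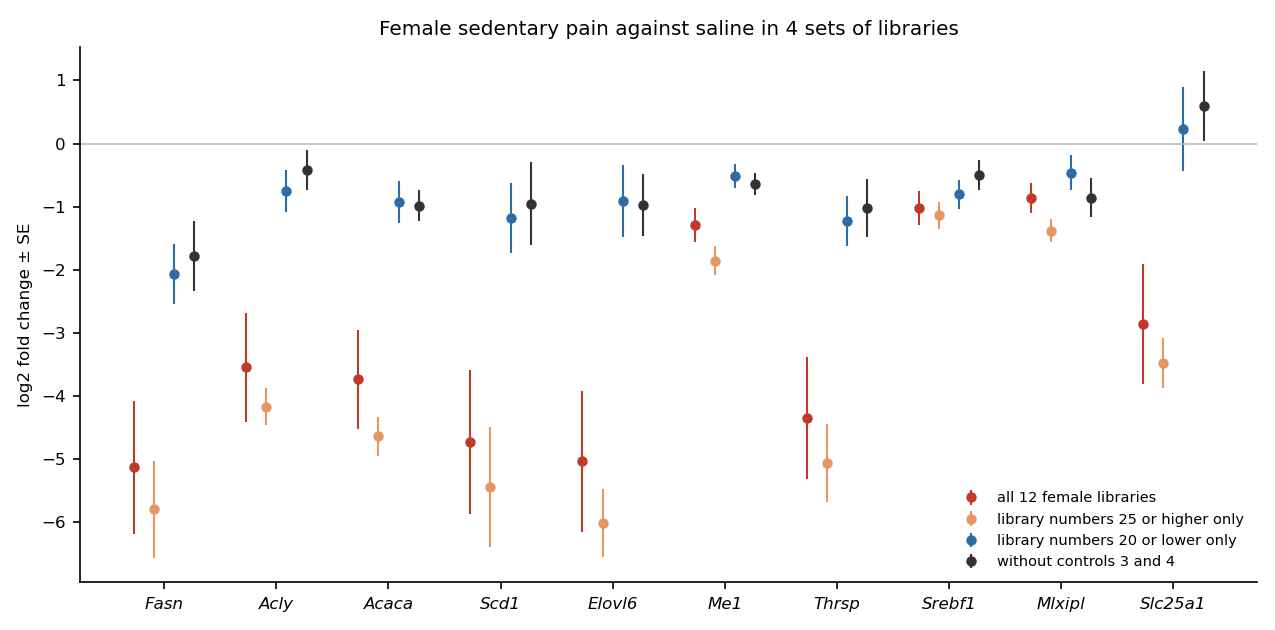
Log2 fold change ± SE of female sedentary pain against saline for each of the 10 genes, in all 12 female libraries (red), in library numbers of 25 or higher (orange) or 20 or lower (blue), and without controls 3 and 4 (black). The red and orange points of 7 genes lie at -2.86 or lower, the blue and black points at -2.07 or higher, and Slc25a1 lies above 0 in both.

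Over all genes tested in this comparison 13.9% were called lower and 19.6% higher, and the counts of the other pathway genes stand beside these shares. Of them, 4 of 13 for carbon and NADPH supply were lower and 1 was higher, with median -0.64. Acss2, which makes acetyl-CoA from acetate, fell from 87.6 ± 63.7 to 14.4 ± 3.58 CPM (mean ± SD, n = 4), and Pcx (pyruvate carboxylase) from 432 ± 212 to 140 ± 67.6 CPM. Pgls, of the pentose phosphate pathway, rose from 19.5 ± 4.22 to 33.1 ± 13.6 CPM. In elongation and desaturation 4 of 18 tested were lower, among them Scd2 (log2 -1.45 ± 0.44) and Fads2 (-1.29 ± 0.35), and 2 were higher, Acsl5 (1.94 ± 0.53) and Elovl1 (1.65 ± 0.36). In triglyceride synthesis 4 of 12 were lower, with Pnpla3 at -3.73 ± 0.74 and Dgat2 at -3.63 ± 0.74, and 1 was higher, Lpin2 at 1.96 ± 0.58. Of 19 regulators 6 were lower, with Pparg at -2.39 ± 0.73 and Insig1 at -1.78 ± 0.54, and 2 higher, Mid1ip1 (1.22 ± 0.40) and Usf1 (0.82 ± 0.25). Of 22 cholesterol genes 7 were lower, with Acat2 at -1.66 ± 0.56 and Idi1 at -1.55 ± 0.42, and 3 higher, with Ebp at 1.03 ± 0.33. The lists were chosen with results of these samples known. Without controls 3 and 4 the counts lower were 1, 0, 2, 1 and 0 in the order given, and the counts higher 2, 3, 2, 1 and 4, with 5.13% of all genes lower and 11.4% higher. With 1 library left out at a time the counts lower ranged from 2 to 5 for supply, 1 to 6 for elongation, 2 to 6 for triglyceride synthesis, 1 to 8 for regulators and 3 to 7 for cholesterol, and the lowest of each came without sedentary pain library 4. Counts lower also fell by over 1.5 times without control 3 or 4 (elongation and cholesterol), control 1 or 4 (regulators), sedentary pain library 2 (elongation and regulators) or 3 (cholesterol). The counts higher ranged from 0 to 1, 1 to 2, 0 to 1, 0 to 3 and 2 to 4 in the same order. Within numbers of 25 or higher the counts lower in that order were 8, 10, 5, 3 and 8 (6.28% of all genes) and the counts higher 0, 2, 1, 0 and 1 (16.2%). Within 20 or lower 1 triglyceride gene was lower (0.112% of all genes) and no gene of the lists was higher (1.56%).

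Active pain females were set against the same 4 controls, so both comparisons share the high libraries, whose spread was part of how the genes were chosen, and the values of the 10 genes are a description. No gene of the 10 passed, and neither did any other gene (0% of 14511) in edgeR's quasi-likelihood test. At an unadjusted p under 0.05 there were 9 of the 10 genes and 1020 of all, and DESeq2 called 6 of the 10 and 125 of all (0.862%). Fasn was at -3.90 ± 0.99, Elovl6 at -4.53 ± 1.09 and Acaca at -3.22 ± 0.77. Acaca, Me1 (-0.86 ± 0.27), Srebf1 (-0.91 ± 0.27) and Mlxipl (-0.37 ± 0.23) did not overlap between the groups, as 1.7% of all genes did not in this direction, and nothing is read from that count. The median was -3.30 with all controls and -0.36 without controls 3 and 4, where Fasn was at -0.53 ± 0.57, Elovl6 at -0.44 ± 0.50, Acaca at -0.45 ± 0.25, Me1 at -0.19 ± 0.18, Srebf1 at -0.36 ± 0.24 and Mlxipl at -0.35 ± 0.31. Within numbers of 20 or lower the median was -0.29 and Fasn at -0.28 ± 0.45 with 0 of the 10 called (0% of all genes), and within 25 or higher the median was -4.35 and Fasn at -5.19 ± 0.75 with 8 called (1.01% of all genes). In no pathway list did a gene pass; Acss2 (-1.63 ± 0.47), Pnpla3 (-2.94 ± 0.71) and Insig1 (-1.84 ± 0.54) had the smallest p of their lists, each with an adjusted p of 0.565. Within numbers of 25 or higher 5 supply, 4 elongation, 3 triglyceride, 3 regulator and 3 cholesterol genes were lower (0.883% of all genes) and none was higher (0.123%). Within 20 or lower, and without controls 3 and 4, no gene of all passed. The adipocyte markers summed to 547 to 916 CPM with active pain, against 525 to 6370 CPM in controls, with a median of -2.54 and none called. The 10 leukocyte markers summed to 187 to 467 CPM, against 77.3 to 173 CPM, with a median of 1.79 and none called. The 18 glandular epithelium markers summed to 10.3 to 13.5 CPM, against 9.97 to 114 CPM. The part of these cells was not tested.

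Active against sedentary pain in females compares no control sample, though the controls enter the fit through the shared spread. Fasn was picked from its low values in these sedentary pain libraries, so the values of the 10 genes are a description here too. None of the 10 genes passed in edgeR's quasi-likelihood test, where 11.9% of 14511 genes did (1730), and none at an unadjusted p under 0.05 (4679 of all genes) or in DESeq2 (20.8% of all genes). The estimate was above 0 for 8 of the 10 genes, with a median of 0.50. Fasn was at 1.23 ± 0.90, at 1.79 ± 0.47 within the low numbers and at 0.61 ± 0.63 within the high ones. Me1 was at 0.44 ± 0.26 with values of 265 to 316 CPM against 167 to 254 CPM, 1 of the 10 genes without overlap upward against 5.93% of all genes. The median was 0.50 within the low numbers, where none of the 10 passed (0% of all genes), and 0.47 within the high ones, where 1 did (15% of all genes). That gene was Mlxipl, which also passed without sedentary pain library 1 and in no other fit with 1 library left out. From the lists 2 of 13 supply genes passed upward (2.51% of all genes), and 2 of 18 elongation, 1 of 12 triglyceride, 3 of 22 cholesterol and 0 of 19 regulator genes passed in total, all downward (9.41% of all genes). Acss1 (0.72 ± 0.21) and Mdh1 (0.68 ± 0.19) rose. Acsl5 (-1.85 ± 0.53), Elovl1 (-1.44 ± 0.35), Lpin2 (-2.19 ± 0.59) and Msmo1 (-0.95 ± 0.28) fell, with adjusted p-values of 0.0328 to 0.0491 over these 6. The leukocyte markers summed to 187 to 467 CPM with active pain against 383 to 4401 CPM with sedentary pain, and 7 of the 10 were called lower, with a median of -2.60; their part in these changes was not tested. None of these calls was made without controls 3 and 4 or within the low numbers, where no gene of all passed. Within the high numbers 4, 3, 1, 1 and 3 genes of supply, elongation, triglyceride synthesis, regulators and cholesterol were lower (13.2% of all genes), and 2 supply genes and 1 cholesterol gene were higher (1.81%). With 1 library left out at a time all-gene calls ranged from 0 (without active pain library 1, 2 or 4 or sedentary pain library 4) to 4316 (without sedentary pain library 1, where 3 regulators were called higher and 4 lower). Without sedentary pain library 3 there were 3, none of them in the 5 lists. Both supply calls were also absent without active pain library 3 or control 1 or 2.

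In males none of the 10 genes passed in either pain group against saline in edgeR's quasi-likelihood test. With sedentary pain 0 of the 10 genes passed (0% of 14404 genes; at an unadjusted p under 0.05, 0 of the 10 and 1273 of all; DESeq2 called 0 of the 10 and 270 of all). Fasn was at -1.02 ± 0.64 (adjusted p = 0.627), Scd1 at -1.01 ± 0.73 and Thrsp at -0.57 ± 0.28, and the median was -0.27. With 1 library left out at a time Fasn ranged from -1.27 to -0.43 and Scd1 from -1.31 to -0.52. Thrsp then ranged from -0.70 to -0.43 and the median from -0.32 to -0.17. No gene was without overlap downward, as 2.93% of genes were. Within the low numbers Fasn was at -1.58 ± 0.51 and within the high ones at -0.30 ± 0.96. The leukocyte markers summed to 107 to 873 CPM with sedentary pain in males, against 55.2 to 117 CPM in controls. Their median was 2.80 with none called, and their part was not tested.

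With active pain 0 of the 10 passed in males (0% of genes; at an unadjusted p under 0.05, 1 of the 10 and 1045 of all; DESeq2 called 0 of the 10 and 127 of all). That 1 gene was Srebf1. Male active pain libraries held 59.5, 48.1, 85.0 and 72.6 CPM of it against 85.6, 115, 107 and 101 CPM in controls, with no overlap, which 2.82% of genes share. Its log2 change was -0.62 ± 0.28 (adjusted p = 0.634 in edgeR), -0.88 ± 0.44 within the low numbers and -0.42 ± 0.16 within the high ones. The leukocyte markers summed to 169 to 446 CPM with active pain in males, against 55.2 to 117 CPM in controls. Their median was 2.26 with none called, and their part was not tested. Between active and sedentary pain males 0 of the 10 passed (0% of genes; at an unadjusted p under 0.05, 0 of the 10 and 121 of all; DESeq2 called 0 of the 10 and 0 of all), with Fasn at 1.04 ± 0.64. Male active pain library 3 held 108 CPM of Fasn and the other 3 held 15.9 to 21.2 CPM, and without it the Fasn change was -0.11. No gene of the 5 pathway lists passed in any male comparison.

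Whether the change differed between the sexes was tested over all 24 libraries. The female changes in these tests rest on the comparison and the controls that the genes were picked from, so the values for the 10 genes are a description. For sedentary pain against saline no gene passed (0% of 15103; 1446 at an unadjusted p under 0.05, 9 of them among the 10), and DESeq2 called 4 of the 10 and 15 of all. The difference, male change minus female change, was 4.06 ± 1.2 for Fasn and 5.40 ± 1.21 for Elovl6. For active pain against saline no gene passed (0% of 15103; 307 unadjusted, 7 of them among the 10), with 2 of the 10 and 3 of all in DESeq2. For active against sedentary pain no gene passed either (0% of 15103; 2224 unadjusted, none among the 10), and DESeq2 called 0 of the 10 and 133 of all. Without female controls 3 and 4 the difference in sedentary pain was 0.75 ± 0.94 for Fasn and 1.37 ± 0.67 for Elovl6, and no gene passed in any of the 3 tests. The Fasn difference was 5.48 ± 1.18 within the high numbers and 0.53 ± 0.76 within the low ones. Within numbers of 25 or higher 8, 3 and 1 of the 10 passed in these 3 tests (8.51%, 0.0694% and 7.71% of all genes), and within 20 or lower none did (0% of all genes).

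Male controls were also set against female controls, the group with the 2 high libraries. The spread among saline controls was part of how the genes were chosen, so this is a description and no p-value is given. In males 7 of the 10 genes were lower and past the threshold of edgeR's quasi-likelihood test, as were 1.28% of 15103 genes, with Fasn at -4.76 ± 0.95, Elovl6 at -5.98 ± 0.95 and Acly at -4.20 ± 0.69. Me1, Srebf1 and Mlxipl were not past it. In 7 genes all male values lay below all female ones (Fasn, Acly, Acaca, Elovl6, Thrsp, Mlxipl and Slc25a1), against 8.73% of all genes. Without female controls 3 and 4 none of the 10 was past it (0.183% of all genes lower), Fasn was at -1.42 ± 0.70, Elovl6 at -1.91 ± 0.51 and Acly at -1.07 ± 0.29. Within the low numbers none passed (0.0133% of all genes lower) and Fasn was at -1.0 ± 0.54, and within the high numbers 8 passed (3.48% of all genes lower) and Fasn was at -6.31 ± 0.98. With all 24 libraries 4 of the 13 adipocyte markers were lower and past the threshold, with a median of -2.26. Of 7 glandular epithelium markers tested 5 were, with a median of -5.03, against 1.28% of all genes. The part of these cells was not tested.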

How the data were processed

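The authors deposited raw read counts per Ensembl gene, 1 file per sample; the values are whole numbers with no normalization found in them. The submitters' processing notes name HISAT2 2.1.0, Salmon 0.9.1, featureCounts and DESeq2 1.24.0 with the builds mm10 and GRCm38.p6; which tool made the counts, the annotation and the use of strand are not given in the sources used here. Libraries were TruSeq stranded, per the labels' protocols. From the counts, edgeR 4.0.16 (R 4.3.3) gave TMM-scaled CPM, a filterByExpr filter (minimum count 10) and robust quasi-likelihood F tests, two-sided, with Benjamini-Hochberg adjustment over all genes tested and a threshold of 0.05. Each sex was fitted alone with its 12 samples; sex differences and male against female controls used all 24. Log2 CPM carry a prior count of 2. Positions and exon lengths are from GENCODE M21. Tests were checked on simulated data.

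Genes and lists were chosen with earlier results of these data known. Of each list, the text names at most 2 risers and 2 fallers that passed, by size and where log2 CPM averaged 1 or more, or else the 2 with the smallest p. A gene that this rule names is not reported here. Alternatives covered scaling, filtering, DESeq2 1.42.0, the library and replicate numbers, other sample sets and each sample left out.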

Additional observations from a re-analysis of the deposited data

Results flagged for a closer look

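Of 60 gene and group combinations of 4 samples, 4 had 1 sample far from the other 3 by Dixon's criterion; chance flags about 1 in 20 groups. Male active pain library 3 was far above the rest of its group for Fasn (108 CPM against 15.9 to 21.2 CPM), Scd1 (592 CPM against 75.7 to 152 CPM) and Elovl6 (2.86 CPM against 0.992 to 1.28 CPM). Its 13 adipocyte markers summed to 808 CPM, the highest of its group (454 to 808 CPM). Male sedentary pain library 1 was far below its group for Me1 (244 CPM against 398 to 427 CPM). Its leukocyte markers summed to 873 CPM, the highest of its group, in which the lowest was 107 CPM. A group split into 2 high and 2 low samples, as the female saline controls were, does not meet this criterion.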

How the results depend on the processing

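Leaving out female controls 3 and 4 and keeping only low library numbers, given in that order, were chosen after seeing the data. For sedentary pain against saline, where the genes were picked, the number of the 10 past the threshold (a description) went from 10 to 2 and 0, the median from -3.64 to -0.90 and -0.86, and all-gene calls from 4867 to 2536 and 238; Slc25a1 turned to 0.60 and 0.23. For active pain against saline the median went from -3.30 to -0.36 and -0.29. For male against female saline the calls among the 10 went from 7 to 0 and 0, all-gene calls from 427 to 108 and 12, and Me1 turned to 0.36 and 0.34. For active against sedentary pain in females all-gene calls went from 1730 to 0 and 0. High numbers only gave 8 of the 10 and 155 genes for active pain against saline, 1 of the 10 and 2306 genes (15%) for active against sedentary pain, 885 genes for male against female saline, and for the 3 sex differences 8, 3 and 1 of the 10 and 1349, 11 and 1222 genes. Fasn in male active against sedentary pain turned to -0.089 within low numbers, and ranged from -0.11 (without active pain replicate 3) to 1.31 with 1 sample left out. The cause was not tested.

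DESeq2 called 6 of the 10 and 125 genes for female active pain against saline, 3010 genes for female active against sedentary pain, 270 and 127 genes for male sedentary and active pain, 720 for male against female saline, and 4, 2 and 0 of the 10 and 15, 3 and 133 genes for the sex differences. Fitting only the 2 groups compared gave 2847 genes for female sedentary pain against saline and 0 for active against sedentary pain; no low-count filter gave 174 and the library number as a term 2745 for the latter. Leaving out 1 sample at a time, all-gene calls ranged from 2486 to 6674 for female sedentary pain against saline, 0 to 4316 for female active against sedentary pain, 198 to 622 for male against female saline, and 0 to 18, 0 to 1 and 0 to 2174 for the sex differences; calls among the 10 ranged from 0 to 1 for female active against sedentary pain and 0 to 3, 0 to 1 and 0 to 1 for the sex differences. Without Fabp4 and Cfd the ratio of Fasn per adipocyte-marker count in female over male saline went from 4.89 to 9.09.

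Residuals of same-numbered samples had correlations of -0.32 to 0.42 in females (mean 0.11, against -0.036 for different numbers) and -0.65 to 0.59 in males (mean 0.013, against 0.0067), not over 0.1 in every pair, so the numbers were not taken as pairs. With a replicate block 9 of the 10 genes and 3739 of all were called for female sedentary pain against saline, 6 of the 10 and 337 of all for male against female saline, and none of the 10 and 1629 of all for female active against sedentary pain; none of the 10 was called elsewhere. With 4 samples a group, and counts near 1 CPM for Elovl6 in males, small changes are not detectable.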

Other observations

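Of 4 brown-fat markers 3 (Ucp1, Elovl3 and Cidea) had both female controls 3 and 4 above the other 22 libraries. Cox8b did not, with a ratio of controls 3 and 4 to controls 1 and 2 of 0.927. Ucp1, the uncoupling protein of brown fat, was at 0.19 and 0.61 CPM in controls 3 and 4 and at 0 in controls 1 and 2, while Cidea was at 11.7 and 8.87 CPM against 0.18 and 0.47 CPM. Among genes of cholesterol synthesis Acat2, which joins acetyl-CoA units, was at 23.2 and 15.8 CPM in controls 3 and 4 against 3.28 and 3.79 CPM in controls 1 and 2, and Idi1 was at 3.27 and 3.51 CPM against 2.54 and 2.73 CPM. Over all 15103 genes, 330 (2.19%) had a mean in controls 3 and 4 over 5-fold that of controls 1 and 2.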
